A study of Homo sapiens with 10 samples.

Results

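CpG-rich single-gene promoters were taken as the canonical transcription start sites (TSSs) of autosomal protein-coding genes whose surrounding 1000 bp had a GC content of at least 55% and an observed-to-expected CpG ratio of at least 0.75, with no protein-coding TSS on the opposite strand within 1000 bp. Of 19111 canonical TSSs, 13951 passed the GC limit, 8703 passed the CpG limit and 8179 passed both, and 7080 of these (37.0%) had no opposite-strand partner. The rule used sequence and annotation alone, but it was chosen with earlier results of these positions known. The members had a median GC content of 68.0% (quartiles 63.2% and 72.2%) and a median CpG ratio of 0.853 (0.803 and 0.909). The 500 bp downstream of the TSS, with a median GC content of 72.0%, were richer than the 500 bp upstream, with 64.6%.

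Nucleosomes were mapped in undifferentiated human induced pluripotent stem cells (hiPSCs) of 1 line, PB010.5, which carries a FUCCI cell cycle reporter in the EEF2 locus. The cells were digested for 5 min with micrococcal nuclease (MNase), an enzyme that cuts linker DNA and spares DNA wrapped on histones, in amounts rising from 0.5 U over 1 U, then 3 U and 6 U, to 10 U. Each concentration gave 1 library, read once with 150-bp and once with 50-bp paired ends, which makes 10 samples of 5 libraries. The values here come from the list of positions pooled over libraries, in which each position is a 140-bp interval with 1 score, so no comparison between concentrations was made. Without replicates no test was possible, and the spread given is the SD over the 22 autosomes, while shares carry a 95% Wilson interval that covers counting error only. The reads behind a score are unknown, and the list holds no RNA or protein value against which to check the cell type.

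CpG islands are stretches of DNA that have kept their CpG dinucleotides, mostly because they are unmethylated in the germ line, and they hold the promoters of housekeeping genes and of many developmental regulators. At an active promoter, transcription factors and the transcription machinery occupy a nucleosome-depleted region (NDR) around the TSS. The first nucleosome downstream, termed +1, borders the NDR and meets RNA polymerase II early in elongation, and the nucleosome on the upstream side is termed −1.

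The sequences of 6 members, read from the hg38 reference from 140 bp before to 20 bp after the TSS, show what such promoters look like and which short motifs were searched. Capitals mark matches to the searched motifs, each written here 5′ to 3′. TATAAA stands for the site of TBP, called the TATA box, and was sought on the gene strand 40 to 15 bp upstream only. GGGCGG stands for the GC box of SP and KLF factors, and CCAAT for the box bound by NFY. CCGGAAG was searched for ETS factors and GCATGCGC for NRF1. TGACGTCA is the cAMP response element (CRE) and CACGTG the E-box. AAGATGGC was searched for YY1 and CTCGCGAG for ZBTB33. All but the first were sought on both strands from 250 bp before to 50 bp after the TSS. EEF2 and PPIA are shown for their TATA box, PCNA for an inverted CCAAT box, MCM2 for an E-box, GLYCTK for an inverted ETS site and HCN2 for its run of GC boxes. They lie at chr19:3985444-3985603 (minus strand), chr7:44796541-44796700 (plus strand), chr20:5119939-5120098 (minus strand), chr3:127598271-127598430 (plus strand), chr3:52287688-52287847 (plus strand) and chr19:589741-589900 (plus strand), and end in at most 28 bases of annotated exon.
EEF2: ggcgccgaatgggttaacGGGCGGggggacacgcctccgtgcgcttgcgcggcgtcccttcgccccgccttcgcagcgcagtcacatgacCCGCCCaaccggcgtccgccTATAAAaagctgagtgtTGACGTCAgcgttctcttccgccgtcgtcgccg
PPIA: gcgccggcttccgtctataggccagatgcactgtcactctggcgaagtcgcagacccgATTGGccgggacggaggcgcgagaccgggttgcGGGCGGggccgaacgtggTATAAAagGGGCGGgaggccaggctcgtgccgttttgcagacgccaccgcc
PCNA: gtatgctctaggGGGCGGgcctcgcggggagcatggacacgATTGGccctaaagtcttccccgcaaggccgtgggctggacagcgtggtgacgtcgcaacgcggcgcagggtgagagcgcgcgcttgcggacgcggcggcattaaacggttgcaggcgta
MCM2: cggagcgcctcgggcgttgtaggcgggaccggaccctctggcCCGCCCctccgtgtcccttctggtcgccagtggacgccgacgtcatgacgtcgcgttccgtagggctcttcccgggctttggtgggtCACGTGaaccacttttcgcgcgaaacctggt
GLYCTK: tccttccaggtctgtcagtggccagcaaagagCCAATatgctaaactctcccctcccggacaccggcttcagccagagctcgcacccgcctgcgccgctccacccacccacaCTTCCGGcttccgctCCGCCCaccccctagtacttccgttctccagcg
HCN2: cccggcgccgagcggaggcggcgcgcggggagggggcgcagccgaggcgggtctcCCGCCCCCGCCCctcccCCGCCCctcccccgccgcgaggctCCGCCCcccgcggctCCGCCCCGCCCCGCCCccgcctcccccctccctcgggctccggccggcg
The 160 bases of HCN2 held 28 CpG dinucleotides at a GC content of 90.0%, against 11 CpG dinucleotides and 64.4% in GLYCTK, so the members span a wide range of composition.

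The second set consists of 30 bases around the YY1 site of 5 members, shown because promoters with this motif had the most pronounced +1 nucleosome of the 9 motif groups. They are the members with the highest score of the nearest downstream position among those with a match, with TSSs sharing a site counted once. Capitals mark the match. The sites lie at chr19:45863120-45863149 (minus strand), chr19:507420-507449 (plus strand), chr19:893147-893176 (minus strand), chr19:1383913-1383942 (plus strand) and chr20:34363292-34363321 (plus strand).
SYMPK: gcgacgaacggAAGATGGCggcggcggcgg
TPGS1: tgcccttaatcAAGATGGCcgccttggggg
MED16: tgttaccgaggAAGATGGCggcgccagacc
NDUFS7: aggccgaggccAAGATGGCggtgctgtcag
ITCH: cgggaccggctGCCATCTTagtctagggac
ITCH carries the motif in the opposite orientation. The letters contain ATG, and at 124 of the 248 distinct gene-strand sites in members (50.0%) that ATG is an annotated translation start codon.

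Around the 7080 members, 109016 midpoints of nucleosome positions lay within 1500 bp of the TSS, with a median of 16 per promoter (quartiles 14 and 17). A midpoint was found on both sides of the TSS at 6991 members, 65 members had none within reach and 134 had fewer than 10. The widest spaces between neighbouring midpoints were among those 134, at NOMO2 (1970 bp), HBA1 (1745 bp) and HBA2 (1580 bp), which were named after their values were seen. NOMO2 and the α-globin genes HBA1 and HBA2 have near-identical copies, to which short reads cannot be assigned uniquely, so their values are uncertain. Annotation of an opposite-strand TSS of any gene type was present within 1000 bp of 1725 members, and 499 had another protein-coding TSS within 3000 bp and so share part of their window with it.

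The average profile of the members had a trough over the TSS and a sharp +1 nucleosome. Densities are given relative to the mean 1000 to 1500 bp from the TSS, in 10-bp bins smoothed over 5 bins. The density in the 200 bp upstream of the TSS was 0.813 of the flanking density, a log2 ratio of -0.30 (SD over autosomes 0.111), and lay below the flanks on 22 of 22 autosomes. It was lowest on chromosome 19, at -0.57, and highest on chromosome 4, at -0.11. The lowest point of the profile, 0.578, lay at 35 bp downstream of the TSS, between the start and the +1 nucleosome. Its side was not the same on all autosomes. It lay upstream on chromosomes 1, 4, 11 and 20, at -35, -5, -25 and -15 bp. The +1 maximum stood at 125 bp (SD 6.10) with a height of 1.85 (SD 0.121), above the flanks on 22 of 22 autosomes.

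**Figure D1:**
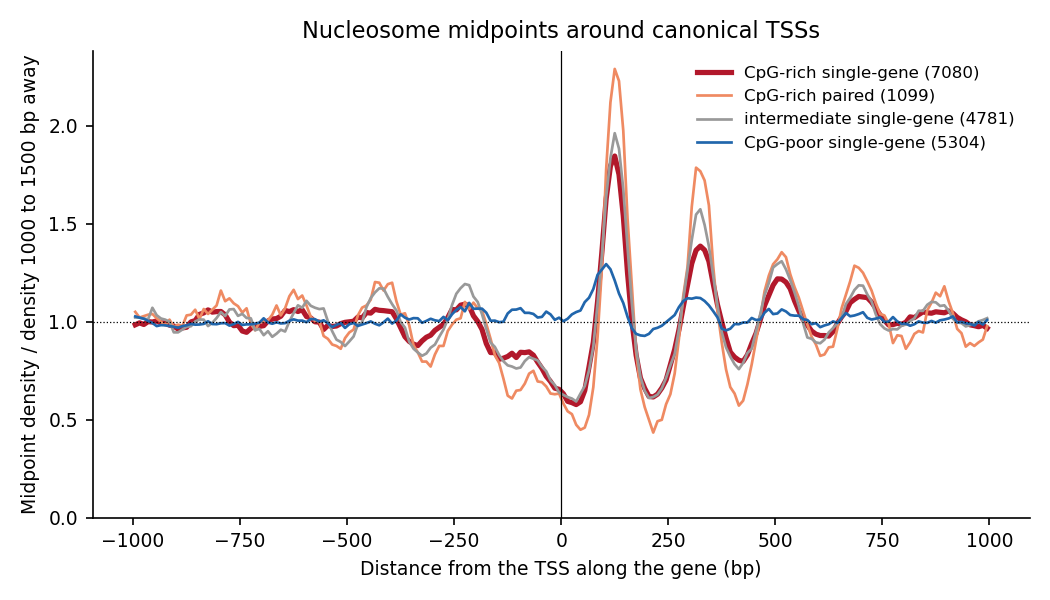
Midpoint density against the distance from the TSS along the gene in bp, divided by the density 1000 to 1500 bp away, for 4 classes of canonical TSS with the number of TSSs in parentheses. The members (thick line) reach 1.85 at 125 bp and 0.578 at 35 bp, whereas the CpG-poor single-gene TSSs (blue) have a +1 maximum of 1.29 and no trough below 0.998 near the TSS.

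Beyond +1, the array of nucleosomes was regular downstream and weak upstream. Successive maxima downstream stood at 325 bp (1.39), 505 bp (1.22), 695 bp (1.13) and 905 bp (1.06), at spacings of 180 to 210 bp, and their heights fell with distance. Upstream the maxima at −225, −435, −625 and −825 bp had heights of 1.09, 1.06, 1.06 and 1.06. The −1 maximum was thus little above the flanking density, with an SD over autosomes of 0.0852. Its location had an SD of 72.3 bp against 6.10 bp for +1. On chromosomes 10, 11, 13, 14 and 18 it fell at −395 bp, the last bin of the range searched, beside the maximum at −435 bp. The SDs of its location and, below, of its score thus depend in part on the limit of the search. A low shoulder at −75 bp, with a density of 0.846, marked positions inside the upstream region itself.

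The scores followed the same asymmetry. Positions within 50 bp of the +1 maximum had a mean score of 26.6 (SD over autosomes 1.66), against 22.7 (SD 1.93) at −1, 14.9 at the −75 bp shoulder and 17.6 (SD 0.872) in the flanks. The nearest downstream position had a median score of 22.2, which stood at percentile 80.1 of all autosomal positions, and the nearest upstream position 16.0, at percentile 56.4. The downstream position was the higher of the pair at 61.0% of members, near the 60.9% of all canonical TSSs. In 2544 of 6991 members (36.4%) it was among the highest 10% of scores, a share below the 39.2% of all canonical TSSs. The sides of these promoters thus differed in score, as they did at all canonical TSSs, with medians of 23.4 downstream and 17.3 upstream. A high score downstream was no more frequent than at all canonical TSSs.

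At single promoters the downstream position varied less in place than the upstream position. The nearest downstream midpoint lay a median of 113 bp from the TSS (quartiles 76 and 140, SD over autosomes 3.12) and the nearest upstream midpoint at a median of −126 bp (quartiles −201.5 and −67). The gap between them, the distance from midpoint to midpoint across the TSS, had a median of 230 bp (quartiles 180 and 310, SD 10.7) and came in steps of 10 bp at 91.4% of members. It was 370 bp when positions under the median score were dropped. From the class with gaps of 100 to 149 bp to the class with 400 to 499 bp, the downstream distance rose from 75 to 134 bp, and the upstream distance from 46 to 298 bp. Wide gaps thus reached mainly upstream.

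**Figure D2:**
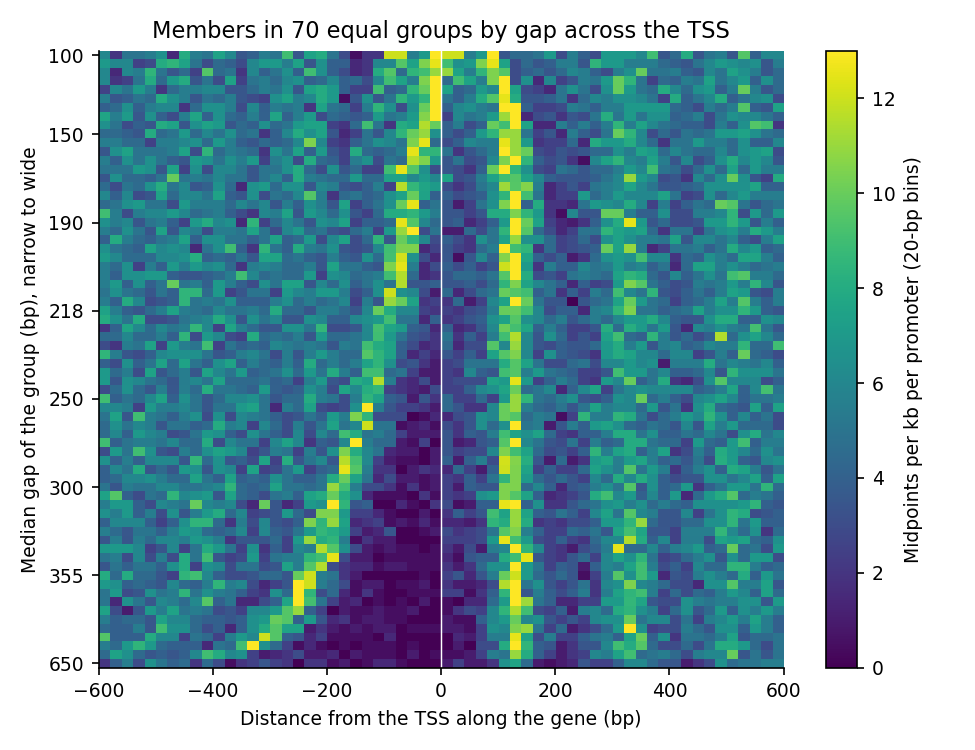
Density of midpoints (midpoints per kb and promoter in 20-bp bins, colour scale) against the distance from the TSS in bp, for 6991 members ordered by gap and divided into 70 groups, with the median gap of the group on the vertical axis. The curved band left of the TSS follows from the ordering, while the vertical bands near 125 and 325 bp show that the +1 nucleosome and its downstream neighbour stay in place over all but the narrowest gaps.

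By gap, 12.0% of the members had 100 to 149 bp, 21.0% had 150 to 199 bp, 21.9% had 200 to 249 bp, 15.7% had 250 to 299 bp, 20.4% had 300 to 399 bp, 6.29% had 400 to 499 bp and 2.69% had 500 bp or more. A gap of 300 bp leaves room for a further 140-bp interval between its borders, and 2054 members (29.4%) reached it, close to the 27.2% of all canonical TSSs. GC content did not follow the gap, with medians between 67.4% and 68.9% in these classes. No midpoint lay in the 200 bp upstream of 1767 members (25.3%, interval 24.3 to 26.3%, SD over autosomes 3.61), near the 23.7% of all canonical TSSs. Without the positions under the median score this share was 57.5%. The TSS itself lay under a 140-bp position at 47.4% of members, against 52.4% of all canonical TSSs. The downstream position had its far end inside the first exon at 62.4% of members. It lay across the end of that exon at 31.0% and past it at 6.67%. At 1540 members (22.0%) the position began upstream of the TSS, and these are counted in the same shares. These exon shares were not computed for other TSSs.

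Against CpG-poor single-gene TSSs, 5304 in number with a CpG ratio under 0.5, the members differed in nearly every measure. The upstream log2 ratio of the CpG-poor group was 0.06 and was higher than that of the members on 22 of 22 autosomes. Its +1 maximum, at 105 bp, reached 1.29 and was lower on 22 of 22. Its share of TSSs with no upstream midpoint was 14.9%, the median gap was 200 bp and the TSS was covered at 69.2%, each differing from the members in the same direction on all 22 autosomes. The mean +1 score, 23.0, was lower than that of the members on 21.

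Against the 4781 single-gene TSSs of intermediate composition, the members were much closer. The upstream log2 ratio was -0.29 there and the gap 235 bp, with the members higher in the log2 ratio on 13 and lower on 9 autosomes. The +1 score was higher in the intermediate group, at 30.3, and the members were lower on 21 of 22 autosomes. Its +1 height of 1.96 and −1 height of 1.19 were also above the 1.85 and 1.09 of the members. In each height the members were lower on 18 autosomes and higher on 4. CpG-rich TSSs with an opposite-strand partner (1099) had a gap of 260 bp, no upstream midpoint at 32.5% and a +1 score of 31.5. Their +1 score was above that of the members on 20 autosomes and their gap was wider on 17, while the upstream log2 ratio of -0.42 was lower on 14 only. The +1 height of that class was 2.29 and was above that of the members on 22 of 22 autosomes. As a maximum over fewer promoters, it is more affected by noise than the mean score is.

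Within the members, the +1 nucleosome was weaker where GC content was higher. From the lowest to the highest quartile of GC content, the +1 height was 2.15, 1.91, 1.72 and 1.64, and the mean +1 score was 30.7, 28.1, 25.5 and 21.8. The flanks went the other way, with mean scores of 15.9, 16.8, 18.0 and 19.4. On single autosomes the +1 score was higher in the lowest than in the highest quartile on 22 of 22, with a mean difference of 9.35 (SD 3.97), and the flank score was lower on 22 of 22. The contrast between +1 and flanks thus shrank as GC content rose.

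The mean upstream density did not follow GC content, whereas the share with no upstream midpoint and the gap did differ between the outer quartiles. The upstream log2 ratio was -0.32, -0.25, -0.28 and -0.33 over the quartiles, and the lowest quartile exceeded the highest on 10 of 22 autosomes. TSSs with no upstream midpoint made up 30.2% of the lowest and 23.4% of the highest quartile, higher in the lowest on 16 autosomes. The median gap was 240 bp in the lowest and 230 bp in the highest, wider in the lowest on 17 autosomes and narrower on 5. Quartiles of the CpG ratio differed less in +1 score, which was 28.3 in the lowest and 24.9 in the highest, with a higher value in the lowest on 20 autosomes. The members with a first exon under 150 bp had a +1 score of 29.4 and those of 300 to under 600 bp a score of 23.8, higher with the short exon on 22 autosomes. The 930 members with a first exon of 600 bp or more did not go further, with a score of 24.4. The GC content of the +1 position was 72.3% with the shortest exons, 75.0% in the class of 300 to under 600 bp and 74.0% in the longest, and its part in the difference was not tested.

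Scores also depended on the GC content of the position itself, over 147 bp around its midpoint, in the flanks as well as at +1. At +1 the mean score was 28.1 for positions of 55 to 60% GC, 30.3 at 60 to 65%, 28.1 at 70 to 75% and 18.9 at 85 to 90%, so that it passed through a maximum. In the flanks it was 20.5, 22.7 and 22.1 in the first 3 of these bins, lower than at +1 in each. Positions with a midpoint within 50 bp of the TSS had scores between 13.1 and 15.4 from 55 to 90% GC, low throughout. The +1 positions of CpG-poor TSSs rose from 15.0 at 35 to 40% to 29.2 at 70 to 75%. At 60 to 65% GC the SD of single +1 scores was 13.4, so the means describe broad distributions.

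**Figure D3:**
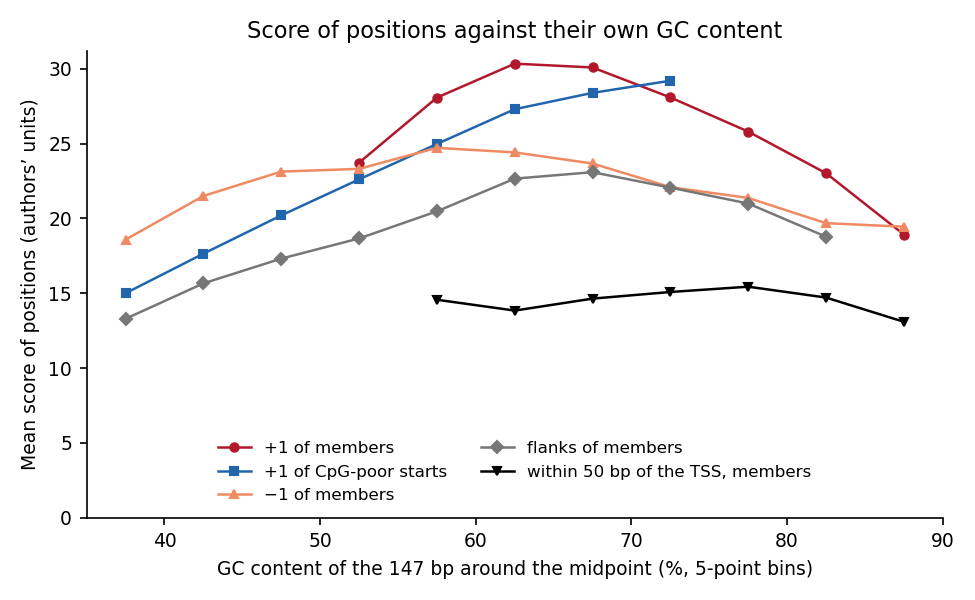
Mean score of positions (the authors' units) against the GC content of the 147 bp around the midpoint, in bins of 5 percentage points, for +1, −1, flanking and TSS-covering positions of the members and for +1 positions of CpG-poor TSSs. The +1 curve of the members peaks at 30.3 between 60 and 65% GC and falls to 18.9 above 85%, and the curve for positions within 50 bp of the TSS stays between 13.1 and 15.4.

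YY1, a zinc finger protein that binds near many housekeeping TSSs, had a match at 308 members (4.35%, against 4.05% of all canonical TSSs), with a median location 16 bp downstream of the TSS. These promoters had a +1 height of 2.92, against 1.80 in the members without a match, and a trough of 0.204 against 0.589. Their mean +1 score was 34.7 against 26.2. The base at the centre of the match lay under a position at 28.3% of matches, whereas the same offsets were covered in 51.8% of members. The upstream log2 ratio was -0.35 with and -0.30 without a match, but the direction of that difference was not the same at all GC contents. It was -0.51 and -0.31 in the lowest GC quartile, where no upstream midpoint was found at 36.4% and 29.8%. In the highest quartile, with 61 matching members, it was -0.27 and -0.34, with shares of 15.0% and 23.7%.

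Of the YY1 matches, 249 were on the gene strand, as in SYMPK, TPGS1, MED16 and NDUFS7 above, and 66 on the opposite strand, as in ITCH. From the gene-strand sites the next midpoint downstream lay at a median of 109 bp, with quartiles of 95 and 124 bp. In the same promoters the distance from the TSS had quartiles of 109 and 141 bp, so the width of the middle range was 29.2 bp from the site and 32.0 bp from the TSS. Within quartiles of GC content, the +1 score with and without a match was 38.3 and 30.1 in the lowest quartile and 29.3 and 21.5 in the highest. The difference therefore held at both ends of GC content.

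ETS factors, activators that bind a GGAA core, had a match at 1102 members (15.6%, against 14.2% of all TSSs). The +1 height was 2.19 with and 1.78 without a match, and the trough was 0.392 and 0.603. The +1 score was 29.6 with a match and 26.0 without, and higher with a match on 20 of 22 autosomes. Promoters with a match had a lower GC content at +1, 71.6% against 73.9%, and also lower flank scores on 21 autosomes. Within GC quartiles the +1 score still differed, at 32.3 and 30.2 in the lowest and 23.6 and 21.6 in the highest. NRF1, a regulator of nuclear genes for mitochondria, had a match at 418 members (5.90%, 4.20% of all), with +1 heights of 2.08 and 1.83. The upstream log2 ratio was -0.42 with and -0.29 without an NRF1 match.

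The CCAAT box, bound by the histone-fold factor NFY, went with a difference in the upstream region. It was found at 2297 members (32.4%, 35.7% of all TSSs), at a median of −97.5 bp. The log2 ratio upstream was -0.44 with and -0.23 without a match, lower with a match on 20 of 22 autosomes. No upstream midpoint was found at 31.4% of promoters with a match and at 22.3% without, higher with a match on 20 autosomes. At +1 the direction was less regular. The mean +1 scores were 27.3 and 26.3 (12 autosomes higher with a match, 10 lower), the +1 height was higher on 14 and lower on 8, and the median downstream score was higher on 14 and lower on 3. The +1 score was 29.8 with and 31.4 without a match in the lowest GC quartile, and 23.4 and 21.3 in the highest. A CCAAT letter run was covered by a position at 49.4% of matches, against 58.9% for the same offsets in all members. The upstream log2 ratio was lower with a match in every GC quartile, at -0.45 and -0.24 in the lowest and -0.45 and -0.30 in the highest.

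The TATA box, bound by TBP, was rare among the members, at 139 (1.96%), against 3.98% of all canonical TSSs and 9.03% of CpG-poor ones. Members with it had a +1 height of 1.59 and a +1 score of 22.8, against 1.85 and 26.7 without, and a log2 ratio of -0.47 against -0.29. The GC box was present at 6048 members (85.4%, 61.7% of all), and the 1032 members without it had a +1 score of 29.1 against 26.2. They also had a lower GC content at +1, 70.3% against 74.0%. The CRE, bound by CREB and ATF factors, was present at 242 members (3.42%, 2.72% of all), the E-box, bound by MYC and USF among others, at 740 (10.5%, 8.69% of all), and the ZBTB33 core at 157 (2.22%, 1.47% of all), with +1 heights of 2.01, 1.94 and 2.40. The upstream log2 ratio with and without a match was -0.39 and -0.29 for the CRE and -0.34 and -0.29 for the E-box. For the ZBTB33 core it was -0.23 and -0.30. Groups of this size give maxima with more noise than the whole set.

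**Figure D4:**
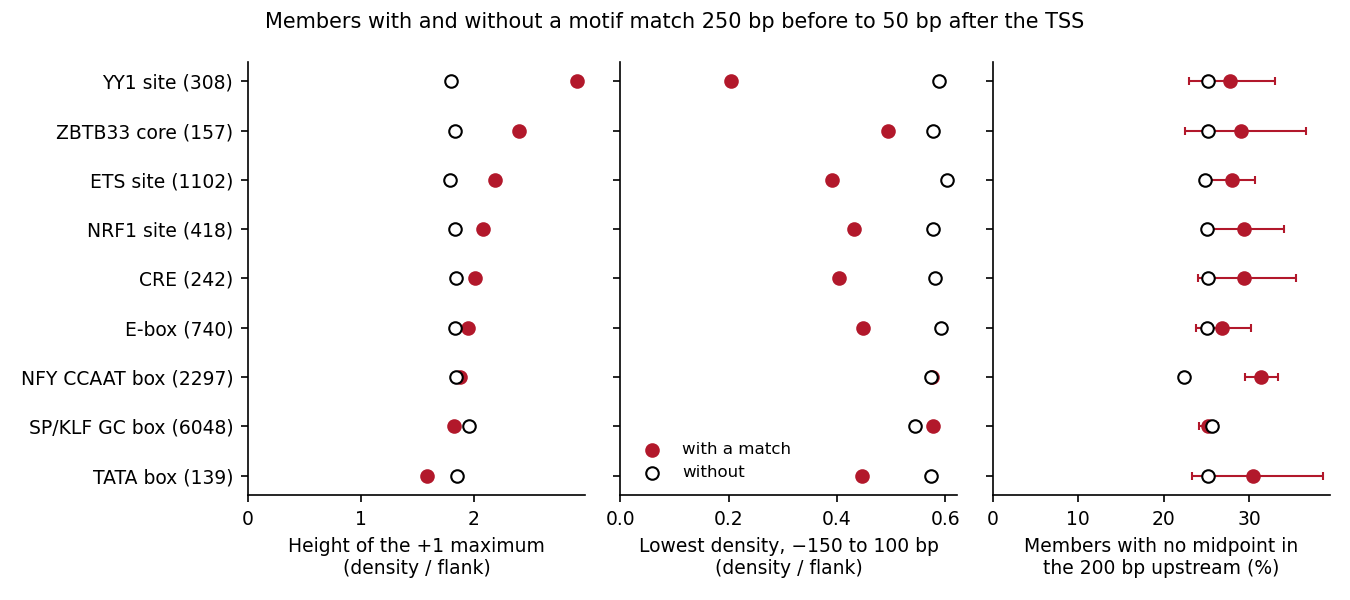
Height of the +1 maximum, lowest density between −150 and 100 bp (both as density over flank density) and share of members with no midpoint in the 200 bp upstream (in %, bars showing the 95% Wilson interval), for members with (filled) and without (open) a match to each of 9 motifs. Numbers in parentheses count members with a match. The YY1 site has the largest separation in the first 2 panels (2.92 against 1.80 and 0.204 against 0.589) and the CCAAT box in the third (31.4% against 22.3%).

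Members with an upstream antisense long noncoding RNA (lncRNA) differed little from those without. The 1214 members with an opposite-strand lncRNA TSS within 1000 bp had a log2 ratio of -0.29, a gap of 240 bp and a +1 score of 26.9, and the 5355 members with no opposite-strand TSS of any type had -0.30, 230 bp and 26.4. The log2 ratio was higher with the lncRNA on 10 autosomes and lower on 11. The flank scores, 16.8 and 17.8, were lower with the lncRNA on 20.

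Promoters of the translation machinery and of the respiratory chain had high scores of the nearest downstream position. Of 80 genes for cytosolic ribosomal proteins 39 were members, and among the 38 with midpoints on both sides the nearest downstream position had a median score of 33.9 (quartiles 20.4 and 43.8), against 22.2 for all members. It was in the highest 10% of scores at 25 of 38, a share of 65.8% against 36.4% of all members. Mitochondrial ribosomal proteins (24 of 78 genes were members) had a median of 27.1, with 15 of 24 in the highest 10%, and a wide median gap of 310 bp. Subunits of the respiratory chain (23 of 90) had a median of 34.5, with 14 of 23 in the highest 10%. The median GC content of these lists, 59.1%, 60.9% and 63.4%, was below the 68.0% of all members, and the lowest GC quartile had a median downstream score of 25.9.

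Lists for DNA replication, the cell cycle, splicing, transcription and the proteasome also had median downstream scores above the 22.2 of all members, with a lower GC content, at medians of 59.2% to 62.2% against 68.0%. Members of the lowest GC quartile had a median downstream score of 25.9. Replication, cell cycle and splicing genes were above that value, transcription genes equalled it and proteasome genes were below it. DNA replication factors, the helicase, clamp and polymerase genes that copy the genome, had 21 of 40 genes among the members, a median downstream score of 30.8 and 15 of 21 (71.4%) in the highest 10%, against 36.4% of all members and 39.2% of all canonical TSSs. Cell cycle regulators (13 of 25) had a median of 28.4 and 8 of 13 (61.5%), and 10 of the 13 held a CCAAT box, which 32.4% of all members had. Splicing factors (21 of 48) had a median of 28.4 and a gap of 275 bp, and the general transcription machinery (23 of 65) had 25.9 and 230 bp. Proteasome subunits (17 of 47), which form the particle that degrades ubiquitinated proteins, had the narrowest median gap of the lists, 180 bp, with a score of 23.4.

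The 3 lists of developmental regulators had the lowest median downstream scores of the lists. Homeobox, paired box, T-box and forkhead factors, which specify cell fates in the embryo, had 96 of 170 genes among the members, and the nearest downstream position had a median score of 17.3 (quartiles 12.3 and 24.7). It was in the highest 10% at 20 of 95 promoters (21.1%, against 36.4% of all members and 39.2% of all canonical TSSs). The upstream position had the same median, 17.3, so the sides did not differ as they did for all members (22.2 and 16.0). Their GC content, 67.7%, was close to that of all members, and their upstream log2 ratio was -0.39. None of them had a YY1 match, 3 had an ETS match and 54 a CCAAT box, against 4.35%, 15.6% and 32.4% of all members. SOX, GATA and bHLH lineage factors (21 of 49) had a median of 21.0, and secreted WNT, FGF and BMP ligands (32 of 59) had 20.4, with a gap of 195 bp. No upstream midpoint was found at 3 of the 32, against 25.3% of all members and 23.7% of all canonical TSSs. The median GC content of the ligand promoters was 72.35%, and the highest GC quartile of the members had a median downstream score of 18.5, below that of the ligands.

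**Figure D5:**
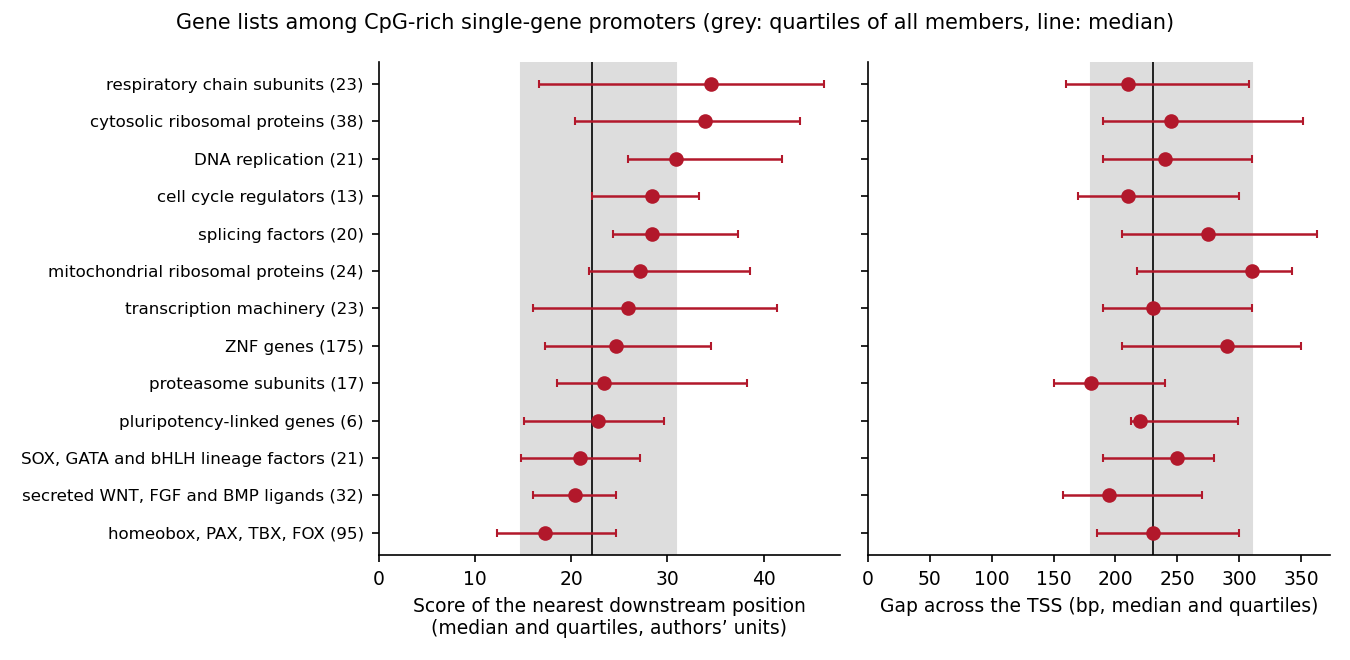
Score of the nearest downstream position (the authors' units) and gap across the TSS (bp) in 13 gene lists, as medians (points) with quartiles (bars), with the quartiles (grey) and median (line) of all members and the number of promoters in parentheses. Medians of the score run from 17.3 in the homeobox, PAX, TBX and FOX list to 34.5 in the respiratory chain, and medians of the gap from 180 bp in the proteasome to 310 bp in mitochondrial ribosomal proteins.

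Zinc finger (ZNF) genes, many of which encode repressors of transposable elements, formed the largest list, with 178 of 503 genes among the members. Their promoters had a median gap of 290 bp and a log2 ratio of -0.64, and no upstream midpoint was found at 69 of 175 (39.4%), against 25.3% of all members and the 23.7% of all canonical TSSs. The 63 members of the list on chromosome 19 had a log2 ratio of -0.83 and a gap of 305 bp, those elsewhere (115) -0.54 and 270 bp, and the 341 other members on chromosome 19 -0.53 and 245 bp. Both the list and the chromosome thus moved with the depletion, and their parts in it were not tested. Pluripotency genes gave 6 members of 20, too few to describe as a group, and none of 415 olfactory receptor genes was a member.

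Of 26 genes chosen for their familiar roles, 11 were members and the other 15 were single-gene TSSs of intermediate composition. The housekeeping genes GAPDH, EEF2 and PPIA had wide gaps and no midpoint in the 200 bp upstream. At GAPDH (ENSG00000111640), the glycolytic dehydrogenase, the gap was 470 bp, from −325 to 145 bp, with scores of 48.1 upstream and 27.1 downstream. At EEF2 (ENSG00000167658, TSS at chr19:3985463, minus strand), which encodes a translation elongation factor and hosts the reporter, it was 360 bp, from −249 to 111 bp, with scores of 34.5 and 28.4. At PPIA (ENSG00000196262, chr7:44796681, plus strand), a peptidyl-prolyl isomerase, it was 400 bp, from −299 to 101 bp, with 27.1 and 13.6. In all 3 the upstream position had the higher score, unlike at 61.0% of members and 60.9% of all canonical TSSs.

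ACTB (ENSG00000075624, chr7:5530601, minus strand), cytoskeletal actin, also had a TATA box, with a gap of 350 bp, from −181 to 169 bp, and scores of 13.6 and 16.0. POLR2A (ENSG00000181222, chr17:7484366, plus strand), the largest subunit of RNA polymerase II, had no TATA match and a gap of 390 bp, from −244 to 146 bp, with scores of 38.2 and 27.1. NPM1 (ENSG00000181163, chr5:171387849, plus strand), a nucleolar phosphoprotein, was narrower at 180 bp, with scores of 9.87 and 21.0. The housekeeping genes thus ranged from 180 to 470 bp.

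The replication and mitosis genes had some of the stronger downstream positions of the panel. PCNA (ENSG00000132646, chr20:5119958, minus strand), the sliding clamp, had a score of 35.8 at 126 bp and a gap of 340 bp. MCM2 (ENSG00000073111, chr3:127598411, plus strand), a subunit of the replicative helicase, had 46.9 at 131 bp, with the upstream midpoint at −19 bp and a gap of 150 bp. CDK1 (ENSG00000170312, chr10:60778478, plus strand), the mitotic kinase, had 45.7 at 164 bp and a gap of 400 bp. These stood at percentiles 98.3, 99.8 and 99.8 of all autosomal scores. Of the developmental genes, GATA6 (ENSG00000141448, chr18:22169589, plus strand), an endoderm and heart factor, had 35.8 at 53 bp, and WNT5A (ENSG00000114251, chr3:55487306, minus strand), a Wnt ligand, had 14.8 at 124 bp and a gap of 150 bp.

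The highest scores of the nearest downstream position were at MLST8 (116, at 138 bp, with a gap of 280 bp), NBPF1 (90.1), GLYCTK (86.4, at 94 bp), SYMPK (86.4, at 135 bp) and AKAP8 (85.1, at 115 bp). MLST8 encodes a subunit of the mTOR complexes and SYMPK, one of the YY1 promoters above, a scaffold of mRNA 3′ end processing. NBPF1 belongs to a multi-copy family and its upstream position had a score of 149, so its values are uncertain. The positions at the other 4 lay within the first 140 bp downstream, near the +1 maximum of the average profile.

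Among members with at least 10 midpoints, the widest gaps were at TMEM50A (1340 bp), HS6ST1 (1140 bp), NUS1 (960 bp), HCN2 (810 bp) and TTLL12 (800 bp). They differed in where the space lay. At TMEM50A the downstream midpoint was in the usual place, at 118 bp with a score of 48.1, and the upstream midpoint was at −1222 bp. At TTLL12 the distances were 132 bp and −668 bp. At HS6ST1, NUS1 and HCN2 no midpoint lay near +1, since the nearest ones downstream were at 796, 633 and 496 bp, and GC content was 78.4%, 65.6% and 82.5%. The part of GC content in these gaps was not tested.

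The limits of the rule did not mark a break. The 271 members with a GC content of 55 to 57% had a log2 ratio of -0.22 and a +1 score of 32.1, and the 179 TSSs just below the limit, at 53 to 55% with the other conditions met, had -0.27 and 29.9. The 1686 members with a CpG ratio of 0.75 to 0.80 had -0.32 and 28.4, and the 1372 TSSs at 0.70 to 0.75 had -0.32 and 30.7.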

How the data were processed

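Nucleosome positions were taken from 1 pooled list for hiPSCs. Per the paper's methods, the authors mapped the paired-end reads to GRCh38, masked blacklisted regions and called positions within nucMACC workflow 3.1, and the submitters' processing notes name Trimmomatic 0.40. The deposited score is a signal, a height per position, whose scaling, caller and pooled runs are not given in the sources used here, so the depth behind a score is unknown. Per the same methods, the shallower 50-bp runs were not taken into downstream analysis, and mono-nucleosomes were obtained from the deeper 150-bp runs after a read-depth filter was relaxed, but the list itself is not tied to either. Scores were used as deposited, without a filter.

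The midpoint of a position was its start plus 70 bp. TSSs were the canonical starts of GENCODE 44 (the study's own methods use release 48), and sequence came from the hg38 reference. The upstream region was 200 bp, the +1 maximum was sought from 0 to 300 bp and the −1 maximum from 400 to 100 bp upstream. Shares of TSSs used those with a midpoint on both sides. Members, lists and motifs were chosen with earlier results of these data known. Coverage of motif matches, the gap limit of 300 bp, the trough, the split of ZNF genes, distances from motif sites, the comparison within GC quartiles and the share of start codons were added after the data were seen.

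Named genes were a panel of 26, the 5 members with the highest downstream score and the 5 with the widest gap among members with at least 10 midpoints. YY1 sites were printed for the 5 members with a match that had the highest downstream score, and a few genes were named with their values after these were seen. The sequence of 1 promoter is not reported here. Scripts ran under Python 3.11.15 with pandas 2.3.3, NumPy 2.4.6, matplotlib 3.10.9 and SciPy 1.17.1, and were first tested on simulated data. With a single pooled list, no p-value was computed.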

Additional observations from a re-analysis of the deposited data

How the results depend on the processing

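The 9 main values (upstream log2 ratio, location and height of +1 and −1, median gap and downstream distance, share with no upstream midpoint, and +1 score) were recomputed under 66 combinations of value and alternative. None changed direction, 52 moved by less than 1 SD over autosomes and 14 were counted as moved. Those 14 moved by more than 1 SD, except the share with no upstream midpoint at the 5′-most TSSs. When positions under the median score were dropped, the log2 ratio was -0.52, the +1 height 2.63, the −1 height 1.35, the gap 370 bp, the downstream distance 128 bp, the share with no upstream midpoint 57.5% and the +1 score 29.4. Fewer positions widen gaps, lengthen the downstream distance and raise the share by construction, and dropping low scores raises the mean score. No cause of the shifts in the log2 ratio and the heights was tested. With the 5′-most TSS of each gene (5603 members), +1 stood at 135 bp with a height of 1.57. The share was then 23.6%, within 1 SD (3.61) of 25.3% but outside its Wilson interval of 24.3 to 26.3%. With a GC content of at least 60% and a CpG ratio of at least 0.85 (3335 members), the +1 score was 24.9. Weighting by score gave heights of 2.93 for +1 and 1.42 for −1, and bins of 25 bp placed +1 at 112.5 bp. The cause of these later shifts was not tested. Members with no other protein-coding TSS within 3000 bp (6581), with no opposite-strand TSS of any type (5355) or, an alternative chosen after seeing the data, with at least 10 midpoints (6946) moved no value by more than 1 SD. No paired analysis was possible because the pooled list carries no replicates, and for the same reason none was left out.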
